A study of Homo sapiens with 24 samples.

Results

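FMR1, its paralogs FXR1 and FXR2, and the FMRP-binding partners CYFIP1, CYFIP2 and NUFIP1 were followed across 4 groups of transfected SH-SY5Y cells. They were chosen by gene symbol, with every feature of each gene on the array, and make up 6 of the 20061 genes and 9 of the 37051 features that carry 1 gene name. FMR1, FXR1 and CYFIP2 have 2 features each, and FXR2, CYFIP1 and NUFIP1 have 1 each. All 6 genes were bright enough to enter the test across genes.

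FMRP, the protein of FMR1, binds mRNAs on polyribosomes and in transport granules of neurons and holds back the translation of many of them. A long CGG expansion in the 5' untranslated region of FMR1 silences the gene in fragile X syndrome, whereas premutation alleles of intermediate length remain transcribed and are linked to a late-onset tremor and ataxia syndrome and to ovarian insufficiency. FXR1 and FXR2 encode autosomal relatives of FMRP with the same KH-type RNA-binding domains. CYFIP1 and CYFIP2 bind FMRP and also sit in the WAVE regulatory complex, which starts branched actin assembly downstream of Rac, and CYFIP1 can bind the cap-binding protein eIF4E. NUFIP1 is an RNA-binding protein of the nucleus that interacts with FMRP and takes part in the assembly of box C/D small nucleolar ribonucleoproteins.

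The cells are one established human neuroblastoma line with neuronal features. In the group called V79 8x, cells received plasmid carrying the FMR1 5' untranslated region with 79 CGG repeats in a condition that the labels call overexpressing. V79 cells received the same 79-repeat region without that mark, V21 cells the region with 21 repeats, and Mock cells the empty plasmid. The plasmid in every group was pCAGIG, in which a CAG promoter drives the insert and a fluorescent protein follows it. The meaning of 8x is not stated, and in the names of the arrays V80 and V80x2 stand in place of V79 and V79 8x. RNA was taken 24 h after transfection. Each group has 6 arrays, which the design text calls biological replicates, and each array has an experiment letter from B to G by which it is named here. The labels give neither the share of transfected cells nor the amount of FMRP protein. In such bulk samples fewer cells of a kind and less RNA per cell cannot be told apart.

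Values are deposited log2 intensities whose distribution is the same on every array (median 6.7). Of the 24 arrays 4 stand apart from their groups, namely V79 B, V21 B, V21 C and Mock D. Their root mean square deviation from the group mean over the tested genes was 0.34 to 0.41, against 0.12 to 0.26 on the other 20 arrays, and the mean of 20 histone genes on them was 0.22 to 0.67 above their group mean, against at most 0.09 above it elsewhere. Differences that moved with these arrays are given also without them. None of the 6 V79 8x arrays is among them. The 4 arrays are those that deviate most in these same data, so leaving them out narrows the spread within V79, V21 and Mock. Adjusted p-values without them can therefore be too small, and a gene that passes only there is given as a description. Of the 12 noradrenergic neuronal markers on the array all were expressed above the dim range (mean levels of 8.16 for PHOX2A to 16.38 for STMN2), and 5 of 6 glial markers lay in the dim range (6.06 to 6.26), with S100B at 8.41. The mean of 27 interferon-response genes was 10.86 to 11.42 on V79 8x arrays, 8.18 to 8.52 on V79, 8.03 to 8.29 on V21 and 8.18 to 8.54 on Mock arrays, so every comparison of V79 8x below is also one between cells that differ in these genes. Their part in the results on the 6 genes was not tested.

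FMR1 lies on the X chromosome at chrX:147911919-147951125 (RefSeq, GRCh38.p14). Its promoter, taken as the 300 bases from 250 before to 50 after the annotated start, has 71.0% GC and 37 CpG, against medians of 58.67% and 14 over 35116 such windows. These windows were searched on both strands for the NRF1 palindrome, the E-box CACGTG and the core of the interferon-response element (GAAA, any 2 bases, GAAA), because NRF1 and E-box factors are described at this promoter and interferon genes differ between the groups. The first 3 stretches of 30 bases show where FMR1 matched, with the match in capitals, and the last one shows the E-box upstream of 1 of the annotated CYFIP1 starts.
FMR1 NRF1 palindrome, chrX:147911775-147911804, plus strand: tcccagcagcGCGCATGCGCgcgctcccag
FMR1 E-box, chrX:147911857-147911886, plus strand: aacagcgttgatCACGTGacgtggtttcag
FMR1 interferon-response core, chrX:147911931-147911960, plus strand: ctcagctccgTTTCGGTTTCacttccggtg
CYFIP1 E-box, chr15:22917496-22917525, minus strand: tgggcacaagtcCACGTGtctgtattcatt

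The FMR1 interferon core is read on the reverse strand, so that TTTC blocks appear in the line above, and lies just after the start. Of all windows 3.57% hold this core. Counted by gene, 4.38% of 27305 genes have it in any window, and so do 18 of the 23 interferon-list genes that have a window. FMR1 was the 1 of the 6 genes with it. The NRF1 palindrome was found in 1.24% of windows and 1.52% of genes, in FMR1 and in 0 of the 23. The E-box was found in 7.26% of windows and 8.78% of genes, in FMR1 and CYFIP1 and in 3 of the 23. A match describes the letters in the window and says nothing of binding. Windows of FXR1, FXR2, CYFIP2 and NUFIP1 held none of these letters.

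FMR1 mRNA was read at similar levels in all groups, with V79 8x cells, which carry the overexpressing 79-repeat condition, inside the range of the others. The brighter feature had its lowest, median and highest level at 9.53, 9.93 and 10.16 on V79 8x arrays, at 9.40, 9.86 and 10.40 on V79, at 9.74, 9.88 and 10.28 on V21 and at 9.67, 9.87 and 10.25 on Mock arrays. The groups overlapped throughout, and the order of their means (9.93 in V21, 9.91 in Mock, 9.87 in V79 8x and 9.81 in V79) spans less than 1 SD of any group. The sources used here do not place either feature within the FMR1 transcript, so it is unknown whether either can read plasmid RNA as well as the cells' own FMR1.

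**Figure D1:**
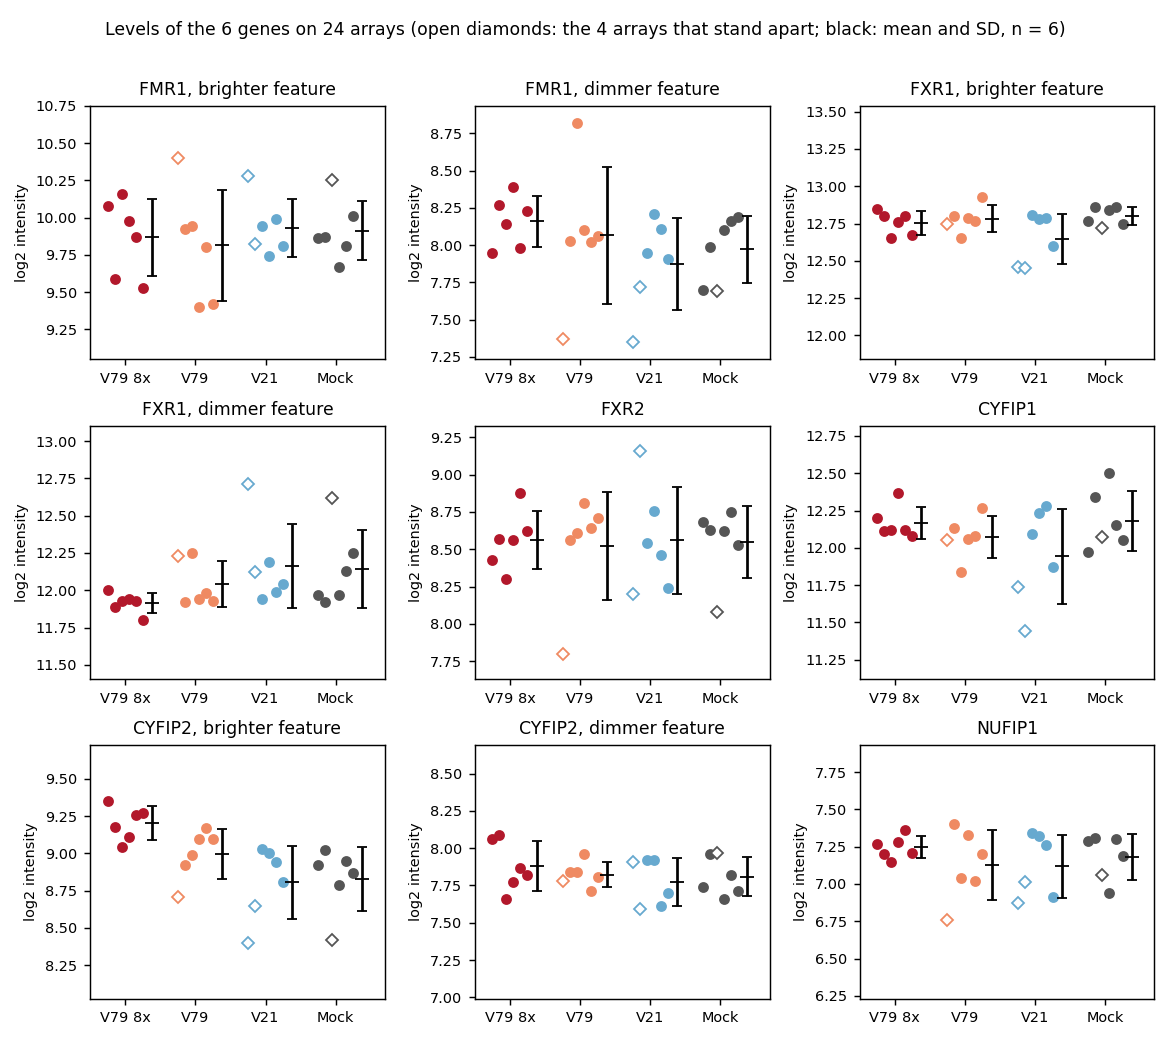
Log2 intensity (vertical axes, 1 panel per feature, all of the same span) of the 9 features on each of the 24 arrays, with the mean and SD of 6 arrays per group as bars and the 4 arrays that stand apart as open diamonds. The groups overlap in all panels except that of the brighter CYFIP2 feature, where all V79 8x arrays (9.04 to 9.35) lie above all V21 (up to 9.03) and Mock arrays (up to 9.02).

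The size of an FMR1 difference that the arrays would still allow can be read from the intervals. V79 8x over V79 was 1.04-fold (95% interval 0.84 to 1.28), V79 8x over V21 0.96-fold (0.78 to 1.18) and V79 8x over Mock 0.97-fold (0.79 to 1.20). V79 over V21 was 0.92-fold (0.75 to 1.14), V79 over Mock 0.93-fold (0.76 to 1.15) and V21 over Mock 1.01-fold (0.82 to 1.25). The adjusted p of FMR1 was between 0.81 and 1 in the 6 comparisons (limma). With the 4 arrays left out, FMR1 was +0.17 on the log2 scale in V79 8x against V79, -0.17 in V79 against V21 and -0.15 in V79 against Mock, none of which passed. Over the 6 comparisons the intervals reach down to 0.75-fold and up to 1.28-fold. Differences inside the interval of a comparison are not excluded there. The intervals are not adjusted for the number of genes and are not limits of detection.

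The dimmer FMR1 feature varied more. Its lowest, median and highest level was 7.95, 8.19 and 8.39 in V79 8x, 7.37, 8.05 and 8.82 in V79, 7.35, 7.93 and 8.21 in V21, and 7.69, 8.05 and 8.19 in Mock. The V79 arrays had the widest spread of the groups, from V79 B at the low end to V79 D at the high end, and V21 B was the lowest of all 24. V79 8x differed from V21 by +0.29 ± 0.17 (SE, adjusted p = 0.417 over all features) and from Mock by +0.19 ± 0.17 (adjusted p = 0.977). On the 20 remaining arrays, with those that stand apart left out, these were +0.12 and +0.13. The brighter feature gave -0.06 and -0.04 in the same comparisons, and 0.00 and +0.02 without the 4 arrays.

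Genes beside FMR1 on the X chromosome were near the floor of the array. FMR1-AS1, the antisense transcript of the locus, averaged 6.40 in V79 8x, 6.31 in V79, 6.35 in V21 and 6.40 in Mock cells. FMR1NB, AFF2, SLITRK2 and SLITRK4 had means of 6.38, 6.01, 6.32 and 6.18 over the 24 arrays. All 5 fell under the level of 6.43 below which genes were not tested, so no difference is given for them.

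CYFIP2 was the 1 gene of the 6 that changed, and it did so in 1 comparison. It lies at chr5:157266123-157395594 (GRCh38.p14) and encodes the CYFIP form that binds FXR1 and FXR2 proteins as well as FMRP. The brighter of its features had a lowest, median and highest level of 9.04, 9.22 and 9.35 on V79 8x arrays, 8.71, 9.05 and 9.17 on V79, 8.40, 8.88 and 9.03 on V21, and 8.42, 8.90 and 9.02 on Mock arrays. Every V79 8x array lay above every V21 array and every Mock array, by 0.01 and 0.02 at the closest, while V79 8x and V79 overlapped. Groups failed to overlap for 2.67% of tested genes in V79 8x against V21 and for 2.97% in V79 8x against Mock. Of the 6 genes 0 were free of overlap in the other comparisons, where 2.06% of tested genes were in V79 8x against V79, 0.0598% in V79 against V21, 0.133% in V79 against Mock and 0.0199% in V21 against Mock.

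CYFIP2 averaged 9.20 ± 0.11 in V79 8x, against 8.81 ± 0.24 in V21 cells (SD, n = 6 each), a rise of 0.40 ± 0.11 on the log2 scale or 1.32-fold (95% interval 1.13 to 1.54, adjusted p = 0.0445). With it 1 of the 6 genes was called in V79 8x against V21, where 2.86% of all 15045 tested genes were called. In that comparison it ranked 405 by p, and 6.36% of genes had a larger absolute difference. With the 4 arrays left out the difference was +0.26 (adjusted p = 0.0378). Leaving out any 1 of 16 arrays ended the call, V21 B most (adjusted p = 0.135), as did a fit of the V79 8x and V21 arrays alone (adjusted p = 0.101).

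Against the empty plasmid the difference of CYFIP2 was of similar size and did not pass. CYFIP2 was at 9.20 ± 0.11 in V79 8x and 8.83 ± 0.21 in Mock cells, +0.37 ± 0.11 or 1.30-fold (1.11 to 1.51, adjusted p = 0.0813). In V79 8x against Mock 2.2% of tested genes were called. With Mock D, at 8.42, and the other 3 such arrays left out, CYFIP2 was at 8.91 ± 0.09 in Mock (n = 5) and the difference of +0.29 passed (adjusted p = 0.00716). Leaving out arrays for their deviation narrows this spread, so that adjusted p can be too small. Both comparisons share the V79 8x arrays, so they are not independent.

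The 79-repeat region without the 8x mark gave smaller values for CYFIP2. V79 8x over V79 was +0.20 ± 0.11 (1.15-fold, interval 0.99 to 1.34, adjusted p = 0.964), V79 over V21 was +0.19 ± 0.11 (adjusted p = 0.832) and V79 over Mock +0.17 ± 0.11 (adjusted p = 1). V21 and Mock differed by -0.02 ± 0.11. Without the 4 arrays V79 over V21 was +0.11 and V21 over Mock +0.04 for CYFIP2. In the order V79 8x, V79, Mock, V21 no neighbouring groups differed past the threshold.

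**Figure D2:**
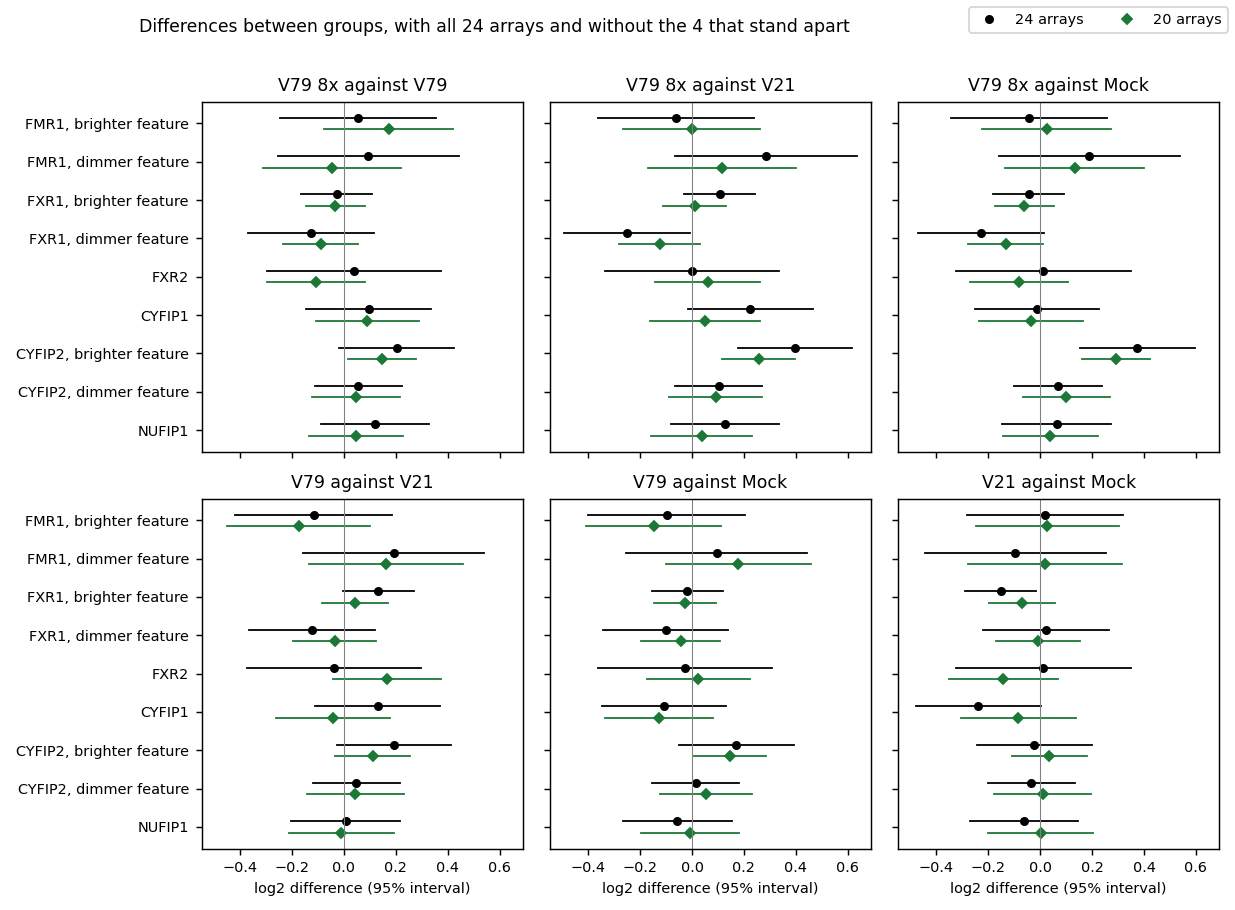
Log2 difference with its 95% interval (horizontal axis) for each feature in the 6 comparisons, from the fit across all features, with all 24 arrays in black and with the 4 that stand apart left out in green. The brighter CYFIP2 feature has intervals wholly above 0 in V79 8x against V21 and against Mock with either set of arrays, while its dimmer feature spans 0 in all panels. With the 4 arrays left out, intervals of the brighter feature also lie above 0 in V79 8x against V79 and in V79 against Mock.

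The dimmer CYFIP2 feature did not repeat the difference. Its lowest, median and highest level was 7.66, 7.85 and 8.09 in V79 8x, 7.71, 7.83 and 7.96 in V79, 7.59, 7.81 and 7.92 in V21, and 7.66, 7.78 and 7.97 in Mock. These groups overlap in every pair. V79 8x exceeded V21 by 0.10 ± 0.08 (adjusted p = 0.537) and Mock by 0.07 ± 0.08 (adjusted p = 0.997). Both features carry the same transcript accession, and the part of the transcript that each reads is not stated.

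In the fit across all 37051 named features, with no filter on dim ones, 0 of the 9 features passed in any comparison with limma, although 2 had an unadjusted p under 0.05 in V79 8x against V21, 1 in V79 8x against Mock and 1 in V21 against Mock, where 15.4%, 7.12% and 2.999% of all features had one. The share of all features called was 1.81% in V79 8x against V21, 1.48% in V79 8x against Mock and 0.856% in V79 8x against V79, and 0.0054% each in V79 against V21 and V79 against Mock. The brighter CYFIP2 feature had an adjusted p of 0.0587 against V21 and 0.103 against Mock there. Over 20 arrays it was +0.29 ± 0.06 against Mock (adjusted p = 0.0104) and +0.26 ± 0.07 against V21 (adjusted p = 0.0553).

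**Figure D3:**
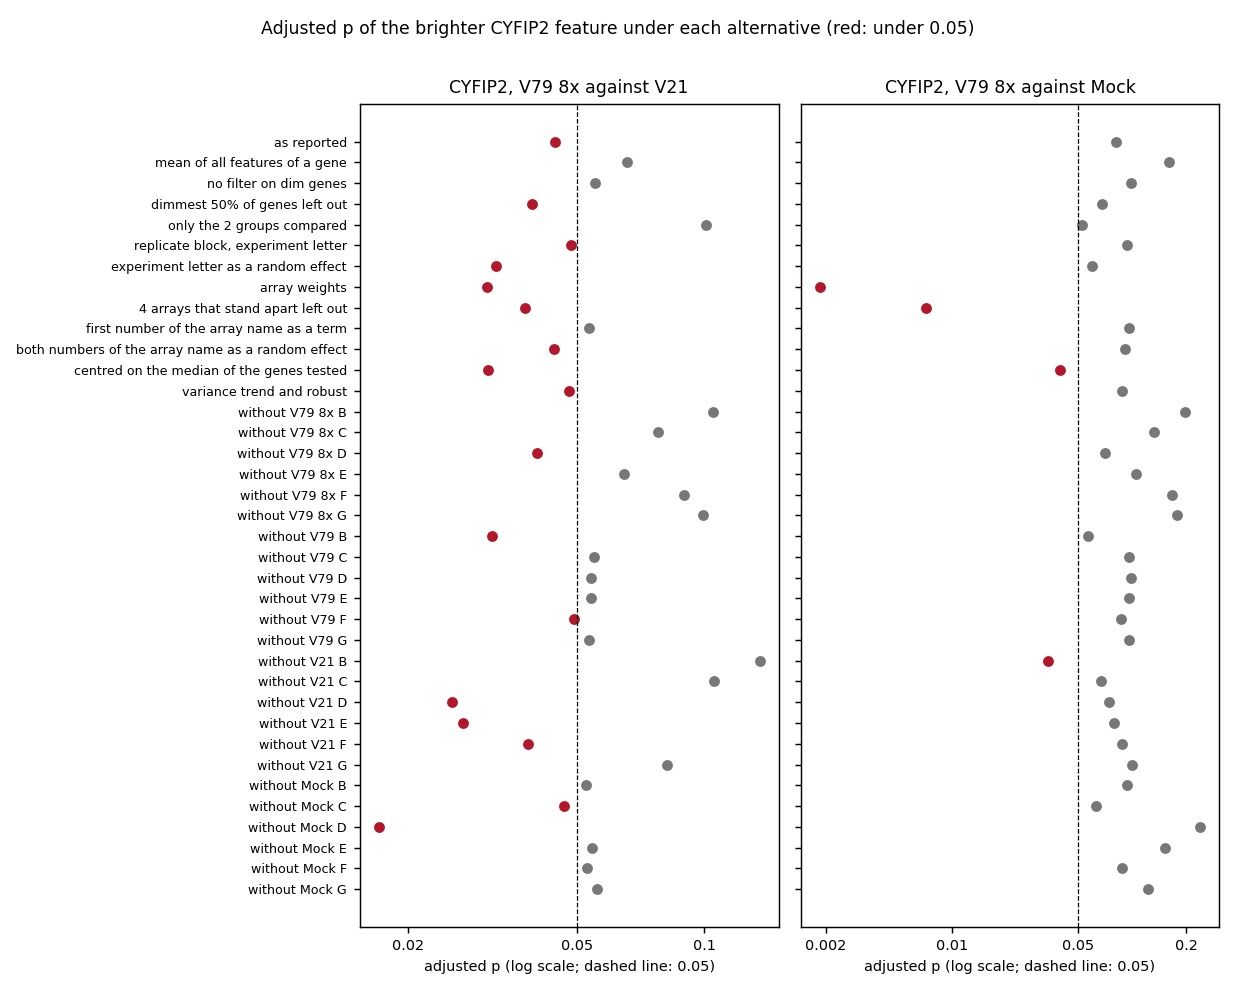
Adjusted p (log axis, dashed line at 0.05) of the brighter CYFIP2 feature as reported and under each of 36 other settings, red where it is under 0.05. Against V21 the adjusted p moves between 0.0171 and 0.135 when 1 array at a time is left out, and against Mock it is 0.00184 with array weights and 0.00716 with V79 B, V21 B, V21 C and Mock D left out.

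CYFIP1, the partner that also contacts eIF4E, lies at chr15:22867052-22980898 and was read near the bright end of the array. Its lowest, median and highest level was 12.08, 12.12 and 12.37 in V79 8x, 11.84, 12.07 and 12.27 in V79, 11.44, 11.98 and 12.28 in V21, and 11.97, 12.11 and 12.50 in Mock cells. The low end was made by V21 C and V21 B, both among the arrays that stand apart. V79 8x was above V21 by 0.23 ± 0.12 (adjusted p = 0.282), and V21 differed from Mock by -0.24 ± 0.12 (adjusted p = 0.782). Over the other 20 arrays these values were +0.05 and -0.08. V79 8x and Mock differed by -0.01 (0.99-fold, interval 0.84 to 1.17).

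FXR1, at chr3:180912670-180982753, had the smallest spread of the 9 features in its brighter one (SD 0.12 over the 24 arrays). Its lowest, median and highest level was 12.65, 12.78 and 12.85 in V79 8x, 12.65, 12.78 and 12.93 in V79, 12.45, 12.69 and 12.81 in V21 and 12.72, 12.81 and 12.86 in Mock. All groups overlapped. V21 differed from Mock by -0.15 ± 0.07 (0.90-fold, unadjusted p = 0.0336, adjusted p = 0.782 from limma), and by -0.07 without V21 B, V21 C and the remaining arrays that stand apart. V79 8x against Mock was -0.05 ± 0.07 (0.97-fold, interval 0.88 to 1.07).

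The dimmer FXR1 feature is annotated to another transcript variant of the gene. Its differences had the sign opposite to those of the brighter feature in the 3 comparisons with V21 and the same sign in the other 3, and neither feature passed. It lay at 11.80 to 12 in V79 8x, 11.92 to 12.25 in V79, 11.94 to 12.71 in V21 and 11.92 to 12.62 in Mock, with medians of 11.93, 11.96, 12.08 and 12.05. V79 8x had the lowest and narrowest values, and its difference from V21 of -0.25 ± 0.12 did not pass (unadjusted p = 0.0434, adjusted p = 0.309 from limma). Against Mock it was -0.23 ± 0.12 (adjusted p = 0.773). V21 B at 12.71 and Mock D at 12.62 were the highest arrays of their groups, and over the 20 other arrays both values were -0.13.

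FXR2, at chr17:7591230-7614897, had the same mean in V79 8x and V21 (8.56 each), with 8.52 in V79 and 8.55 in Mock. Its lowest, median and highest level was 8.30, 8.57 and 8.88 in V79 8x, 7.80, 8.63 and 8.81 in V79, 8.20, 8.50 and 9.16 in V21, and 8.08, 8.63 and 8.75 in Mock. The lowest V79 array, the highest V21 array and the lowest Mock array are V79 B, V21 C and Mock D. No difference exceeded 0.04 in size over the 24 arrays, with standard errors of 0.16. Over 20 arrays V79 against V21 was +0.17 and V21 against Mock was -0.14, and neither passed.

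NUFIP1, at chr13:44939249-44989471, had a mean level above that of 39.1% of named features. Its lowest, median and highest level was 7.15, 7.24 and 7.36 in V79 8x, 6.76, 7.12 and 7.40 in V79, 6.87, 7.14 and 7.34 in V21 and 6.94, 7.24 and 7.31 in Mock. The V79 8x arrays were the tightest group and lay inside the range of V79. The differences were +0.12, +0.13 and +0.06 for V79 8x against V79, V21 and Mock (SE 0.10 each, adjusted p between 0.463 and 0.980). With the 4 arrays left out they were +0.05, +0.04 and +0.04, and without V79 B alone the difference from V79 was +0.05.

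Counted over the 6 genes, 0 were called in V79 8x against V79 (background 1.15%), in V79 against V21 and in V79 against Mock (0.00665% each), and in V21 against Mock (0% of tested genes by limma). The number with an unadjusted p under 0.05 was 0, 0, 0 and 1 in these comparisons, the 1 being FXR1, and 5.50%, 3.82%, 2.70% and 3.23% of all tested genes had one. Their median log2 difference was +0.08 in V79 8x against V79, +0.12 against V21 and 0.00 against Mock, beside +0.01, +0.03 and +0.01 over all tested genes. Without the 4 arrays the median of the 6 was +0.07, +0.04 and -0.01. The largest absolute difference of a member in the 3 comparisons without V79 8x was the -0.24 of CYFIP1 in V21 against Mock.

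Features of one gene did not run in parallel across the 24 arrays. Over all of them, Pearson's r between the brighter and the dimmer feature was -0.46 for FMR1, -0.48 for FXR1 and +0.23 for CYFIP2, and Spearman's rho was -0.36, -0.44 and +0.33. With those arrays left out (n = 20) r was 0.01, -0.17 and +0.57. The arrays share their normalisation and any array-wide deviation, so these are descriptions only. On the 4 arrays, set against the rest of their own groups, the dimmer FMR1 feature was lower on 4 of 4 (-0.84 to -0.33) and the brighter one higher on 3 of 4 (-0.05 to +0.70). The dimmer FXR1 feature was higher on 4 of 4 (+0.08 to +0.67), and the brighter FXR1, brighter CYFIP2, CYFIP1 and NUFIP1 features were each lower on 4 of 4.

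**Figure D4:**
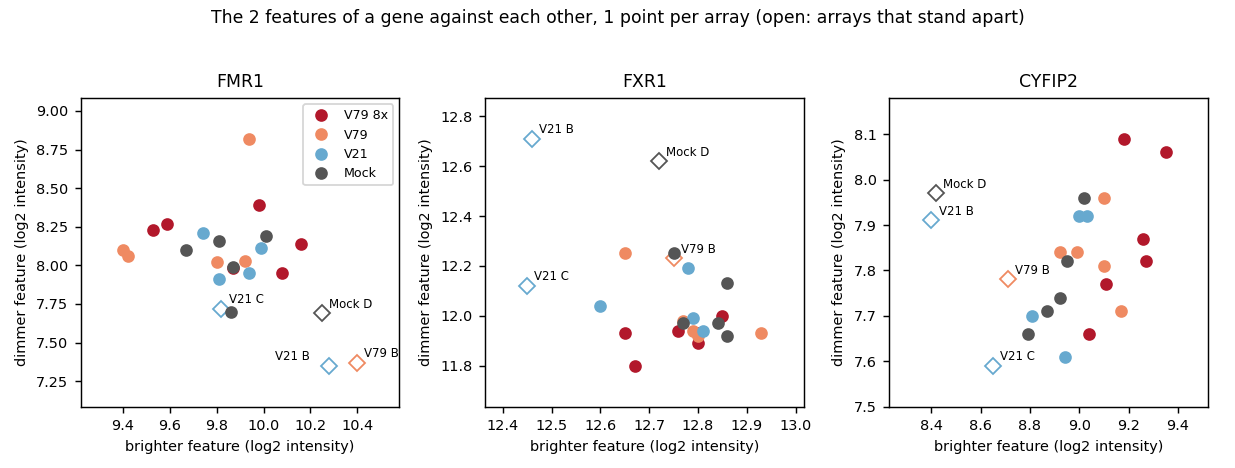
The dimmer feature (vertical axis) against the brighter feature (horizontal axis) of FMR1, FXR1 and CYFIP2, both in log2 intensity, with 1 point per array and the 4 arrays that stand apart as open, labelled diamonds. In the FMR1 panel V21 B, V79 B and Mock D lie at the lower right, in the FXR1 panel V21 B and Mock D lie at the top, and in the CYFIP2 panel V21 B and Mock D lie at the left.

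The difference between features was also compared between groups by an exact permutation of the 12 arrays of each pair. For CYFIP2 the gap between the brighter and the dimmer feature was 1.32 in V79 8x, against 1.03 in V21 (two-sided exact p = 0.0238) and 1.02 in Mock (exact p = 0.0108). For FXR1 the gap was 0.84 in V79 8x against 0.48 in V21 (exact p = 0.0281). After adjustment over the 18 such tests each of these exact p-values became 0.169, and the remaining 15 were at 0.568 or above. With the 4 arrays left out, the difference in gap was 0.17 for CYFIP2 against V21 (exact p = 0.0952), 0.19 for CYFIP2 against Mock (exact p = 0.0173) and 0.14 for FXR1 against V21 (exact p = 0.0952), with adjusted p-values of 0.312 or above. A change in the balance of transcripts read by the features was not detected at this number of arrays.

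Between genes, each read by its brightest feature alone, the closest pair over the 24 arrays was FXR1 with CYFIP1 (r = 0.82, and 0.64 without the 4 arrays). Next in size was FMR1 with FXR2 (r = -0.69, and -0.52 without them). CYFIP2 with NUFIP1 had r = 0.60, and 0.33 without the 4 arrays. CYFIP1 with CYFIP2 had r = 0.43, and 0.02 without them. FMR1 with FXR1 had r = -0.33. All points share their arrays and normalisation. The 2 features of FMR1 and of FXR1 did not run in parallel, so these values describe 1 feature of each gene.

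Among all 15039 other tested genes, CCDC88C (r = 0.86), a regulator of Wnt signalling, was most like the brighter FMR1 feature over the 24 arrays. Next were A4GALT (r = 0.83), the synthase of the glycolipid globotriaosylceramide, and ADAMTSL5 (r = 0.82), a secreted matrix protein. The dimmer FMR1 feature was not compared in this way. Only 6 genes exceeded 0.8 with the brighter FMR1 feature. For the brighter CYFIP2 feature 542 genes did, led by CACNA2D2 (r = 0.96), an accessory subunit of voltage-gated calcium channels, CERS4 (r = 0.95), a ceramide synthase, and NFKBIA (r = 0.94), the inhibitor of NF-kB. Over the 20 arrays these values were 0.81, 0.68 and 0.69 for FMR1 and 0.95, 0.86 and 0.80 for CYFIP2.

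The wider machinery around these proteins was described by lists. Of the WAVE regulatory complex and its Rac activators 10 of 12 genes were tested and 0 were called in any comparison, also at an unadjusted p under 0.05. CYFIP2, whose call against V21 is given above, is not among these 10. The median of the 10 was +0.07, +0.19 and +0.06 for V79 8x against V79, V21 and Mock, beside +0.01, +0.03 and +0.01 over all genes, and -0.14 for V21 against Mock beside -0.02. The list mean was 10.27 on V21 B and 10.16 on V21 C, and with the 4 arrays left out those medians were 0.00, +0.01 and +0.01 for V79 8x against V79, V21 and Mock and -0.01 for V21 against Mock. Of 16 tested genes of cap binding by eIF4E and its repression 0 were called, with 5 at an unadjusted p under 0.05 in V79 8x against V21 and 0 in the other 5 comparisons, and 19.4% of all tested genes had one in V79 8x against V21. The 16 genes of box C/D assembly, in which NUFIP1 acts, gave 0 calls and 0 unadjusted p under 0.05. Of 9 tested genes that modify FMRP or its turnover 0 were called. For V79 8x against V79, V21 and Mock their median was -0.09, -0.06 and -0.06, beside +0.01, +0.03 and +0.01 over all genes. In that order 1, 2 and 0 of the 9 had an unadjusted p under 0.05, beside 5.50%, 19.4% and 8.84% of all tested genes. Without the 4 arrays the medians were -0.11, -0.08 and -0.05, with 0, 2 and 2 of the 9 higher in V79 8x. In V79 against Mock 1 of the 9 had an unadjusted p under 0.05, beside 2.70% of all tested genes, and in the remaining comparisons 0.

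Of 31 tested proteins that bind FMRP or share its granules, MOV10 and YBX1 changed. MOV10, an RNA helicase that works with FMRP at mRNA 3' ends and in the Argonaute pathway, was at 10.43 to 10.84 on V79 8x arrays, 9.77 to 10.31 on V79, 9.47 to 10.31 on V21 and 9.96 to 10.33 on Mock arrays. All V79 8x arrays lay above all arrays of the other groups. MOV10 rose by 0.65 ± 0.12 in V79 8x against V21 (adjusted p = 0.00121) and by 0.51 ± 0.12 against Mock (adjusted p = 0.0165). In V79 8x against V79 MOV10 did not pass (+0.45, adjusted p = 0.0765), and with the 4 arrays left out it did (+0.36, adjusted p = 0.00915). The call against Mock was lost without Mock D, Mock G or V79 8x G, with an adjusted p of up to 0.0579, and with the mean of both features (0.0616). The dimmer MOV10 feature gave +0.50 against V21 (adjusted p = 0.0254), +0.29 against Mock (adjusted p = 0.487) and +0.19 against V79 (adjusted p = 0.999) in the fit across features. Of 27 tested interferon-list genes 26 rose in each comparison of V79 8x. Whether the MOV10 difference goes with theirs was not tested.

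YBX1, a cold-shock-domain protein that packages mRNA, was at 14.44 ± 0.20 in V79 8x and 14.87 ± 0.15 in Mock (SD, n = 6 each) and fell by 0.43 ± 0.10 on the log2 scale (adjusted p = 0.0218). Its other feature gave -0.09 (adjusted p = 0.995), and leaving out any of 5 arrays ended the call, Mock D most (adjusted p = 0.0743). The granule list had 1 call up in V79 8x against V21 and 1 up and 1 down in V79 8x against Mock, with medians of -0.04 and 0.00. Of all tested genes 2.86% and 2.2% were called in these comparisons.

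Of 38 tested mRNAs that have been described as FMRP targets, ARC was the 1 called. ARC encodes a synaptic protein needed for long-term plasticity. It lay at 8.13 to 8.79 in V79 8x, 8.78 to 8.95 in V79, 8.86 to 9.05 in V21 and 8.61 to 9.04 in Mock. V79 8x and V21 did not overlap. ARC fell by 0.35 ± 0.08 in V79 8x against V79 (adjusted p = 0.0363, lost without any of 9 arrays, up to 0.0971) and by 0.38 ± 0.08 against V21 (adjusted p = 0.0092). Fitted with only the 2 groups compared, neither fall of ARC passed (adjusted p = 0.112 and 0.0739), and with the experiment letter as a replicate block the call against V79 was lost (adjusted p = 0.0794). Against Mock the difference of ARC was -0.30 (adjusted p = 0.0658). With the 4 arrays left out it passed there as well (-0.35, adjusted p = 0.0186), as did SHANK3 (+0.25) and MMP9 (+0.41), both named for that reason after their values were seen. The median of the 38 was -0.01 against V79, +0.03 against V21 and +0.01 against Mock. In the same order 3, 12 and 8 of the 38 had an unadjusted p under 0.05, beside 5.50%, 19.4% and 8.84% of all tested genes. The share of all tested genes called was 1.15%, 2.86% and 2.2%. In the 3 comparisons without V79 8x, 0 of the 38 were called. There 0, 1 and 3 had an unadjusted p under 0.05, beside 3.82%, 2.70% and 3.23% of all tested genes.

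Among markers of cell state, COL1A2, a fibrillar collagen chain and 1 of 12 mesenchymal markers, fell by 0.49 ± 0.10 in V79 8x against V21 (adjusted p = 0.0033) and by 0.40 ± 0.10 against Mock (adjusted p = 0.0245, lost without any of 7 arrays). ISL1, a transcription factor of sympathetic neurons and 1 of 12 noradrenergic markers, fell by 0.24 ± 0.06 in V79 8x against Mock (adjusted p = 0.0232, lost without any of 5 arrays and at 0.0831 with only those groups in the fit). The lower ISL1 level was not particular to V79 8x. V79 against Mock was -0.27 ± 0.06 without passing (limma, unadjusted p = 0.000111, adjusted p = 0.831), and V79 8x against V79 was +0.03 ± 0.06. Of the 12 noradrenergic markers 6 were higher and 6 lower in V79 8x than in Mock, with a median difference of 0.00 and list means of 11.57 in V79 8x and 11.56 in Mock. Of the 12 mesenchymal markers 5 were higher in V79 8x than in V79, 4 than in V21 and 4 than in Mock. Their median differences were -0.13, -0.10 and -0.065 in that order. With the mean of all features of a gene, COL1A2 was at -0.44 in V79 8x against Mock (adjusted p = 0.00264 by limma). The remaining 11 markers of each list and the glial S100B were not called in V79 8x against V21 or Mock. With the 4 arrays left out, PRRX1, a mesenchymal homeobox factor named after its values were seen, also passed in V79 8x against V79, V21 and Mock (-0.25, -0.32 and -0.27).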

How the data were processed

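The table used is the authors' deposited table of log2 intensities from 1-colour Agilent arrays, with 62976 features on 24 arrays. Per the labels, 100 ng of RNA was labelled with Cy3. How background was corrected and arrays were normalised is not stated; array names begin with IntNorm. The sorted deposited values differed by at most 0.01 between arrays, which hides any common shift of most genes. Features took their names from the platform annotation, updated by accession (33705) or former symbol (644), and 2702 kept the platform's symbol; 25925 had no gene. No scanner background or detection flag was used.

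The brightest feature by mean over the 24 arrays stood for a gene, and genes in the lowest 25% by mean level (6.43 or less) were dropped, so 15045 were tested. All 4 groups entered 1 fit in limma 3.58.1 (lmFit and eBayes, R 4.3.3, statmod 1.5.0 for random blocks) with no covariates. Two-sided p-values were adjusted by Benjamini-Hochberg over the genes tested, per comparison, at a threshold of 0.05. "Rose", "fell" and "changed" refer to genes past it. A second fit took all 37051 named features. The ± after a difference is its standard error, with a median of 0.098 over all genes, and after a level the SD. The number of arrays limits the precision. The 6 comparisons share groups, so their results are not independent, and levels of different genes are not set against each other. The procedure was tested on simulated data. Arrays correlated at 0.967 to 0.998, and no 2 held the same values.

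The 6 genes and the gene lists were chosen with earlier results of these data known, as were the 4 arrays that stand apart. Named were the 6 genes, from each list up to 2 genes past the threshold per comparison, and the 3 genes most correlated with FMR1 and with each of the 6 genes that passed. The lists were the 6 genes themselves, the WAVE complex, eIF4E repression, FMRP-binding and granule proteins, box C/D assembly, FMRP-target mRNAs, FMRP modification, FMR1 neighbours, noradrenergic, mesenchymal and glial markers, interferon response and histones. Of the interferon list 26 of 27 tested genes rose in each comparison of V79 8x (medians +2.76, +2.88 and +2.70 against V79, V21 and Mock). Of 20 histone genes tested 0 rose and 2 fell, 1 rose and 6 fell, and 0 rose and 3 fell in the same order. In the other comparisons 0 genes of these 2 lists were called. Promoter sequences and gene positions are RefSeq's for GRCh38.p14.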

Additional observations from a re-analysis of the deposited data

Results flagged for a closer look

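Each of the 9 features was examined for a single array far from the other 5 of its group, by the gap to the nearest array over the group's range. Of the 36 groups 3 exceeded Dixon's 95% critical value for 6 arrays, which chance alone exceeds in about 1 group in 20. The dimmer FXR1 feature was at 12.71 on V21 B, against 12.19 on the next V21 array. FXR2 was at 7.80 on V79 B, against 8.56 on the next V79 array, and at 8.08 on Mock D, against 8.53 on the next Mock array. All 3 are among the 4 arrays that stand apart from their groups in the report, and the values without those arrays are given there.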

How the results depend on the processing

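Over 36 other settings the 6 genes gave 1290 values, of which 1266 kept their direction or stayed uncalled, 20 lost a call, 4 gained one and 0 reversed a called direction; 65 uncalled values had the opposite sign. All lost and gained calls were those of CYFIP2. In V79 8x against V21 the count of the 6 genes called was 1 and became 0 with the mean of all features of a gene (adjusted p = 0.0656), with no filter on dim genes (0.0552), with only the 2 groups in the fit (0.101) and with the first number of the array name as a term (0.0536); leaving out 1 array at a time it was 0 to 1. In V79 8x against Mock the count was 0 and became 1 with array weights (0.00184), with the 4 arrays that stand apart left out (0.00716) and with arrays centred on the median of the tested genes (0.0398), and it was 0 to 1 when 1 array at a time was left out (0.0344 without V21 B, 0.239 without Mock D). Of the 9 features 0 were called in V79 8x against V21 and in V79 8x against Mock, and leaving out 1 array at a time gave 0 to 1 in both; against Mock the count was 1 with array weights and 1 without the 4 arrays. These settings for the features, and the values of gene lists and feature gaps without the 4 arrays, were chosen after seeing the data. Why the calls moved was not tested, beyond fewer arrays or more tests entering the fit.

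With the replicate block, the experiment letter as a term, the adjusted p of CYFIP2 was 0.0486 against V21 and 0.0932 against Mock, and no call of the 6 genes changed. Of the named list genes 1 call was lost with the block, that of ARC in V79 8x against V79 (0.0794). Pairing by letter was uneven, and this check cannot exclude it. Of 36 same-letter pairs 16 had correlated deviations over 0.1, and 4 of 24 arrays matched their own letter best. The mean correlation of same-letter pairs ran from -0.17 for D to 0.26 for B. With the block 185, 537 and 349 genes were called in V79 8x against V79, V21 and Mock, beside 173, 431 and 331 as reported. The count of all genes called ran from 123 to 461 in V79 8x against V79 (173 as reported; 461 with array weights, 274 without the 4 arrays), from 243 to 728 in V79 8x against V21 (431; 243 with only the 2 groups, 728 without V21 E), from 258 to 1045 in V79 8x against Mock (331; 1045 with array weights, 597 without the 4 arrays), from 0 to 2 in V79 against V21, from 0 to 3 in V79 against Mock, and was 0 throughout in V21 against Mock. NUFIP1 gave no value with the dimmest 50% of genes left out. Signal over background is unknown, and a fold is least certain for NUFIP1 and the dimmer features.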
